A study of Mus musculus with 8 samples.

Results

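The 46 genes described here encode the machinery that licenses origins, unwinds DNA and copies it during S phase. They were listed by name and sorted into 8 role groups, with earlier results of these data known. All 46 were found by Ensembl gene ID among the 21517 genes listed in either of the 2 deposited tables, and all 46 reached a mean of 10 in both tables, the level required for testing. The values are a normalized abundance per gene, deposited in 1 table of 4 libraries for each stage. Levels are compared only between libraries of 1 stage.

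The 8 libraries each hold polyadenylated RNA of 20 pooled mouse embryos before implantation. The groups were morulae, the compacted stage before the cavity forms, and blastocysts, each from a control group labelled NC and from a group with knockdown (KD) of Snf2h, the gene now named Smarca5, with 2 libraries per group. SMARCA5 is the ATPase of the ISWI nucleosome remodelers, some of which work at replicating chromatin. The series gives embryonic days 3.75 and 4.25 without tying them to stages in the labels, and neither the strain, the knockdown agent nor the content of NC is given in the sources used here. Each library is a pool of whole embryos, so fewer cells in S phase and less RNA per cell cannot be told apart.

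Before S phase the origin recognition complex (ORC), CDC6 and CDT1 load rings of MCM2 to MCM7 onto DNA, and geminin blocks reloading. The kinase CDC7 with DBF4, together with MCM10, TICRR, TOPBP1, CDC45 and GINS, turns the ring into the active helicase. RFC then loads the sliding clamp PCNA, RPA coats single strands, primase and DNA polymerases alpha, delta and epsilon copy the strands, and FEN1 and LIG1 join Okazaki fragments. Many of these genes are known targets of E2F transcription factors.

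The knockdown was visible in every KD library. Smarca5 was 9678 and 9760 in NC against 501 and 470 in KD morulae (20.0-fold lower, limma adjusted p = 1.88e-04), and 7000 and 8283 against 906 and 855 in blastocysts (8.68-fold lower, adjusted p = 5.93e-04). Both calls were lost when limma did not model the variance by level (adjusted p = 0.111 and 0.103). All 15 embryo markers were present at both stages, among them Pou5f1 at 19699 to 27047, and several moved with the groups (given beside the member counts). Summed markers of cumulus, granulosa and stromal cells (9 of 18 listed in the morula table) were 123 to 218 in NC and 298 to 315 in KD morulae, with Fshr, Cyp19a1, Has2 and Ptx3 at 0 or not listed, and 224 to 375 against 237 to 488 in blastocysts. Blood markers (9 of 10 listed) summed to 638 to 1094 in NC and 565 to 1094 in KD morulae, and to 488 to 928 and 776 to 1018 in blastocysts (10 of 10 listed). Oviduct and uterine epithelium markers (5 of 9 listed) summed to 77.4 to 99.2 and 115 to 127 in morulae, and to 706 to 725 and 702 to 843 in blastocysts, with Foxj1, Ltf and Tff3 at 0 or not listed. The part of these cell markers in the results below was not tested.

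The start regions of 6 members are shown because 4 of them (Mcm3, Rfc1, Rfc5 and Rpa1) had the smallest unadjusted limma p of all members at 1 of the stages, while Mcm5 and Mcm6 carry E2F words. Each stretch runs 5′ to 3′ toward the gene, lies within 250 bases before the RefSeq start (GRCm38.p6), and holds only bases outside GENCODE exons. Capitals mark E2F words (TTTCCCGC, TTTCGCGC, TTTGCCGC or TTTGGCGC) and CCAAT boxes, on either strand.
Mcm3 (chr1:20820313-20820562, minus strand): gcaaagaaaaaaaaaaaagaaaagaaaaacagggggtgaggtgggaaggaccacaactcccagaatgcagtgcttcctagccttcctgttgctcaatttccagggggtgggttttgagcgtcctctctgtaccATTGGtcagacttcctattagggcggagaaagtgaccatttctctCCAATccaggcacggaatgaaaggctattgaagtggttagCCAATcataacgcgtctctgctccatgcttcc
Rfc1 (chr5:65335671-65335889, minus strand): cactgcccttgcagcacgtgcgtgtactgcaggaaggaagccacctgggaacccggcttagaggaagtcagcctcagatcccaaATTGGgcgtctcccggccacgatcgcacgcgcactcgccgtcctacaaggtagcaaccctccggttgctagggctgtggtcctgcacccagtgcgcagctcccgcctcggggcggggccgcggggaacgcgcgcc
Rfc5 (chr5:117389048-117389138, minus strand): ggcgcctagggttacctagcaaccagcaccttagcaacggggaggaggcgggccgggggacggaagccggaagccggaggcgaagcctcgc
Rpa1 (chr11:75348384-75348432, minus strand): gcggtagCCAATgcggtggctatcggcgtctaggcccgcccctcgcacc
Mcm5 (chr8:75109259-75109508, plus strand): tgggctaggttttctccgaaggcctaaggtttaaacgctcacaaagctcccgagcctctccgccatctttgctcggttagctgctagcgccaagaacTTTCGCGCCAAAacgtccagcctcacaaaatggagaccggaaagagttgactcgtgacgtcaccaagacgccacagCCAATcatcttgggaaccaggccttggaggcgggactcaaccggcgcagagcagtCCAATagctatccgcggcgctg
Mcm6 (chr1:128359706-128359955, minus strand): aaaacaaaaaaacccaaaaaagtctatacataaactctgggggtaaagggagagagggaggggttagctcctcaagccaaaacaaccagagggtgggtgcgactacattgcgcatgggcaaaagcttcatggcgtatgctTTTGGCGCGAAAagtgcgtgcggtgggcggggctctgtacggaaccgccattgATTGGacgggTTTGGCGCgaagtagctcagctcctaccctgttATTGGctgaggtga

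RefSeq windows were found for 38 of the 46 members, 47 windows in all, and none was used for Gins1, Gins2, Gins4, Gmnn, Mcm4, Pole, Prim2 and Rfc2. An E2F word stood in the 250 bases before the start in 10 of these 47 windows (21.3%), against 1.86% of all 32851 windows. The 10 genes were Cdc6, Gins3, Mcm5, Mcm6, Mcm7, Orc1, Orc3, Pola1, Rfc3 and Topbp1. Mcm5 has 2 overlapping E2F words and Mcm6 has 3, of which a pair overlap. CCAAT stood in 53.2% of member windows and 33.8% of all windows, and TTTGAA, the element known from mitotic genes, in 12.8% and 16% (both strands searched). The shown stretches of Mcm3, Rfc1, Rfc5 and Rpa1 hold no E2F word and 3, 1, 0 and 1 CCAAT boxes. Members with an E2F word had a median log2 difference, KD minus NC, of 0.06 in morulae and -0.09 in blastocysts, and the 28 without one 0.01 and -0.08.

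Across the whole set, no member passed the test at either stage. The test was limma on log2(value + 1) over all tested genes with a Benjamini-Hochberg adjusted p under 0.05. In morulae it called 1 of 13404 genes (0.00746%, 0% higher), which was Smarca5 itself. In blastocysts it called 0.0879% of 13651 genes (0.0366% higher and 0.0513% lower). In morulae 24 members were higher and 22 lower in KD, with a median log2 difference of 0.01 (all genes -0.01) and a range of -0.53 to 0.57. In blastocysts 13 were higher and 33 lower, with a median of -0.10 (all genes 0.00) and a range of -0.61 to 0.35. The median size of the difference, whatever its sign, was 0.14 and 0.13 on the log2 scale. The median gap between replicate libraries of the members was 0.13 (NC) and 0.20 (KD) in morulae and 0.12 and 0.10 in blastocysts. Without an effect, a gap between single libraries is expected to exceed a difference between group means, so these sizes are not directly comparable. Over all genes tested the differences had a median size of 0.24 at each stage. Their median replicate gaps were also wider, 0.29 (NC) and 0.26 (KD) in morulae and 0.22 and 0.21 in blastocysts. In NC level per kilobase of merged exons, the median member stood at percentile 79.3 of tested genes in morulae and 79.9 in blastocysts.

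Members past a log2 difference of 0.5 numbered 2 of 46 at each stage, against 24.6% of all genes in morulae and 24.9% in blastocysts. Members were more abundant and varied less between replicates than all genes, so these shares do not compare like with like. In morulae both KD libraries lay above both NC libraries for 10 members (background 20.7%) and below for 10 (background 21.2%). In blastocysts they lay above for 5 (background 24.6%) and below for 16 (background 24.9%). At an unadjusted p under 0.05, 10.4% of all genes in morulae and 17.6% in blastocysts were found. Among them 2 members were higher (Rpa1, Prim1; background 5.16%) and 2 lower (Rfc1, Dbf4; background 5.22%) in morulae. In blastocysts 1 was higher (Rpa1; background 8.83%) and 3 lower (Mcm3, Mcm4, Rfc5; background 8.73%). These shares of the members are near or under those of all genes, except the members below NC in blastocysts.

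For some markers of the embryo's own lineages the KD and NC libraries did not overlap. In blastocysts both KD libraries were above NC for 7 of the 15 embryo markers (Cdx2, Gata3, Tead4, Klf5, Krt8, Krt18, Dppa4; background 24.6%) and below for 2 (Pou5f1, Sox2; background 24.9%), and none passed. The other markers, among them Nanog and Gata6, overlapped. Krt8, a keratin of the trophectoderm, was 39192 and 38809 in NC and 43299 and 49475 in KD, and Sox2, a gene of the inner cell mass, was 1636 and 2215 against 1266 and 1456. In morulae both KD libraries were above NC for 3 (Pdgfra, Sox17, Dppa4, background 20.7%) and below for 4 (Tfap2c, Krt8, Krt18, Dppa3, background 21.2%). The summed embryo markers were 159725 to 164054 in NC and 169778 to 186013 in KD blastocysts, and 102120 to 104684 against 95446 to 105429 in morulae. Their part in the differences of the replication genes was not tested.

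**Figure D1:**
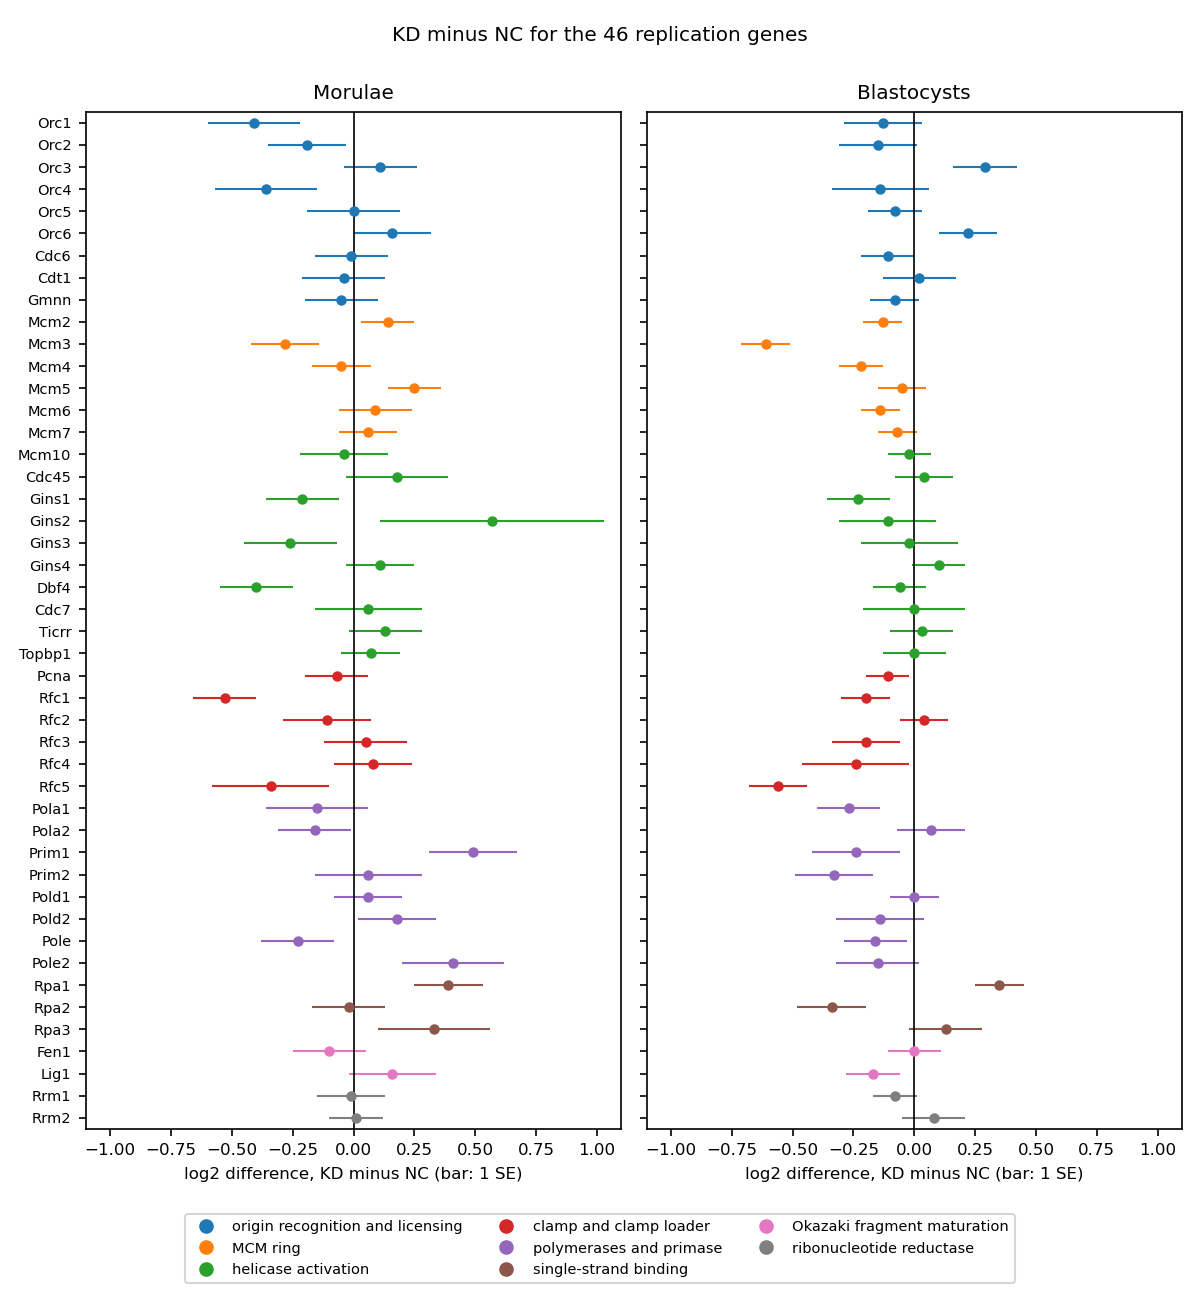
The log2 difference, KD minus NC, of normalized abundance (x axis, bars are 1 SE) is plotted for each of the 46 members (y axis, coloured by role group) in morulae and in blastocysts, with 2 libraries per group. Most points lie within 1 or 2 SE of 0, Rfc1 (-0.53) is lowest in morulae, and Mcm3 (-0.61) and Rfc5 (-0.56) are lowest in blastocysts.

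Transcripts of the licensing group, which marks and loads origins, were near their NC level by the median, though some ORC subunits differed more. Of its 9 genes 6 were lower in KD at each stage, with a median log2 difference of -0.04 in morulae and -0.08 in blastocysts. Orc1, the ATPase subunit of ORC that cycles with the cell cycle, was 614 and 589 in NC and 489 and 419 in KD morulae (log2 difference -0.41, SE 0.19, limma adjusted p = 0.518). The KD values all lie below NC. In blastocysts Orc1 was 549 and 650 against 563 and 529, which overlap (log2 difference -0.13, and -0.01 without NC replicate 2). Orc4 was 1075 and 1060 in NC and 687 and 999 in KD morulae (-0.36, SE 0.21, limma adjusted p = 0.604). Its KD libraries were lower there, but the difference was -0.10 without KD replicate 1. The Orc4 groups overlapped in blastocysts (-0.14). Orc3, a core subunit, was 888 and 925 in NC and 1193 and 1036 in KD blastocysts (0.29, SE 0.13, adjusted p = 0.307, and 0.19 without KD replicate 1). Its KD libraries were also above NC in morulae, at 884 and 852 against 785 and 824 (0.11, and 0.07 without NC replicate 1).

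The loading factors differed little. Cdc6, which joins ORC to recruit the ring, had a log2 difference of -0.01 in morulae and -0.11 in blastocysts. Cdt1, which delivers the ring, had -0.04 and 0.02, and Gmnn, which encodes geminin, -0.05 and -0.08. Per kilobase of merged exons Cdt1 was the most abundant licensing transcript in NC morulae, at 1837, followed by Gmnn at 1305 and Cdc6 at 528, while Orc3 was at 132. The libraries of Cdt1 spread widely, 4969 and 6565 in NC and 5080 and 6037 in KD morulae, and overlapped.

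The MCM ring, the 6 related ATPases that form the motor of the helicase, had lower means in KD blastocysts by small amounts, and no subunit passed. All 6 were lower there, with a median log2 difference of -0.13, and for 5 of them (all but Mcm5) the KD values did not reach the NC range, which holds for 24.9% of all genes. Summed per kilobase, the ring was 6232 and 6365 in NC and 5579 and 5594 in KD blastocysts. In morulae 4 of the 6 were higher in KD and the sums were 4990 and 4998 against 5090 and 5247. Mcm3 was the subunit with the largest difference at each stage.

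Mcm3 (ENSMUSG00000041859; mm10 chromosome 1, 20802968 to 20820312, minus strand, protein-coding) was 3510 and 3281 in NC and 2158 and 2280 in KD blastocysts. Both KD libraries were far below both NC libraries, by more than the libraries of either group differed. The log2 difference was -0.61 (SE 0.10), 1.53-fold lower, with an unadjusted p of 4.71e-04 and a limma adjusted p of 0.0766 over all genes, so it did not pass. In morulae Mcm3 was 3320 and 3599 in NC and 2575 and 3125 in KD (-0.28, SE 0.14, adjusted p = 0.560). The KD libraries were again lower, but KD replicate 1 set much of the difference, which was -0.15 without it.

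As a share of the ring's summed abundance per kilobase, Mcm3 was 17.7% and 19.2% in NC and 13.5% and 15.9% in KD morulae. In blastocysts it was 15.0% and 13.7% in NC and 10.3% and 10.9% in KD. A share within 1 library does not depend on how libraries were scaled to each other, and the groups did not overlap at either stage. Mcm3 was picked for its difference in these same libraries, so its share is no separate support. No test of the share was run.

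The other ring subunits had smaller differences. Mcm4 was 3530 and 3697 in NC and 3122 and 3076 in KD blastocysts (-0.22, SE 0.09, adjusted p = 0.272), without overlap, and -0.05 in morulae with overlap. Mcm5 was 4588 and 4543 in NC and 5431 and 5430 in KD morulae (0.25, SE 0.11, adjusted p = 0.50), where both KD libraries were higher. In blastocysts Mcm5 was 5307 and 6097 against 5428 and 5587, which overlap (-0.05, and 0.05 without NC replicate 2). Mcm2, Mcm6 and Mcm7 had log2 differences of 0.14, 0.09 and 0.06 in morulae and -0.13, -0.14 and -0.07 in blastocysts.

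**Figure D2:**
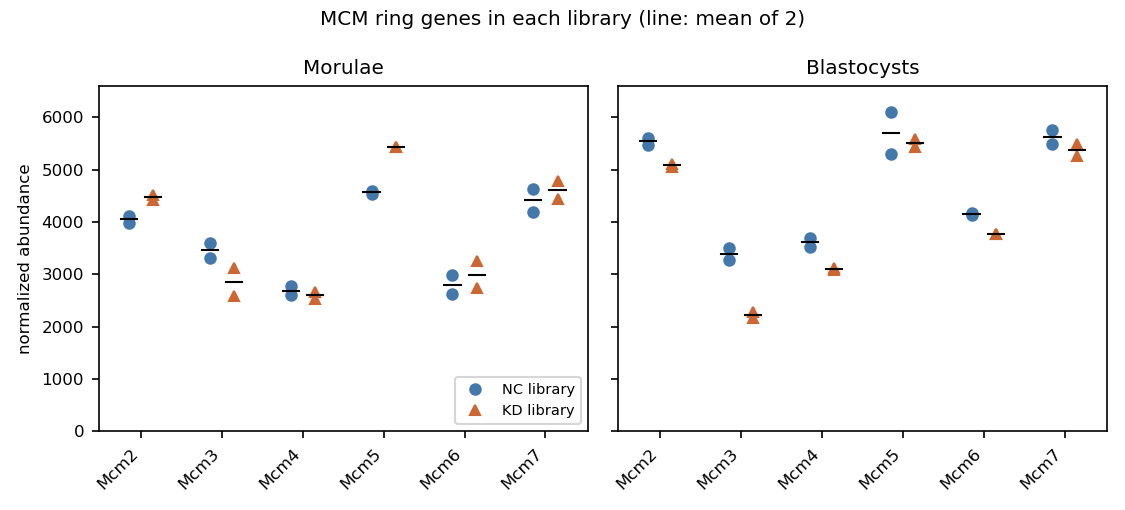
Normalized abundance (y axis, linear, normalized separately by stage) of the 6 MCM ring genes (x axis) is plotted for each NC library (circles) and KD library (triangles), with a line at each group's mean of 2. In blastocysts the KD libraries of Mcm3 (2158 and 2280) sit well below its NC libraries (3510 and 3281), while those of Mcm5 lie within the NC range.

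Helicase activation genes varied more between libraries than the ring. Of 10 genes, 6 were higher and 4 lower in KD morulae (median 0.07), and 3 were higher and 7 lower in KD blastocysts (median -0.01). Dbf4, the regulatory subunit of the CDC7 kinase, was 1923 and 1701 in NC and 1282 and 1473 in KD morulae (-0.40, SE 0.15, adjusted p = 0.462). Both KD libraries were lower there, whereas in blastocysts they overlapped NC (1945 and 1863 in NC against 1732 and 1935 in KD, log2 difference -0.06, and 0.02 without KD replicate 1). Its kinase partner Cdc7 had a log2 difference of 0.06 in morulae, and its groups overlapped at both stages.

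GINS, the 4-subunit complex that bridges helicase and polymerase, had subunits on both sides of NC, and differences between subunits were not tested. Gins1 was 1002 and 1041 in NC and 896 and 867 in KD morulae (-0.21), and 1164 and 1335 against 1042 and 1079 in blastocysts (-0.23, adjusted p = 0.390). Its KD libraries were lower at both stages, and the blastocyst difference was -0.13 without NC replicate 2. Gins3 was 716 and 701 in NC and 524 and 665 in KD morulae, with KD lower (-0.26, adjusted p = 0.683), and overlapped in blastocysts. Gins4 was slightly higher in both KD libraries at each stage (0.11 and 0.10). Gins2 had the highest morula difference of any member, 0.57, but its libraries were 540 and 216 in NC and 656 and 392 in KD (SE 0.46, adjusted p = 0.721). They overlap, replicate 1 was the higher one in each group, and the difference was 1.22 without NC replicate 1 and -0.09 without NC replicate 2. Mcm10, Cdc45, Ticrr and Topbp1, which recruit or complete the helicase, had differences of -0.04 to 0.18 in morulae and -0.02 to 0.04 in blastocysts.

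In the clamp group, 2 subunits of the clamp loader differed most from NC and the clamp itself by little. Of 6 genes, 4 were lower in KD morulae and 5 in KD blastocysts, with medians of -0.09 and -0.20. Pcna, the sliding clamp, was 2623 and 2801 in NC and 2452 and 2735 in KD morulae (-0.07), which overlap. In blastocysts it was 3350 and 3334 against 3220 and 2958 (-0.11, adjusted p = 0.570), with both KD libraries slightly lower.

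Rfc1, the large subunit of the loader (ENSMUSG00000029191; mm10 chromosome 5, 65261850 to 65335670, minus strand, protein-coding), was 2775 and 3014 in NC and 1959 and 2057 in KD morulae. The KD libraries were well below NC, 1.44-fold on the means (log2 difference -0.53, SE 0.13, unadjusted p = 0.00505, limma adjusted p = 0.362). In blastocysts Rfc1 was 2230 and 2447 in NC and 2040 and 2039 in KD (-0.20, SE 0.10, adjusted p = 0.377). KD was again lower, by less (-0.13 without NC replicate 2). Its share of the loader per kilobase was 29.7% and 33.6% in NC and 23.4% and 26.0% in KD morulae, but 22.5% and 21.2% against 22.9% and 21.8% in blastocysts, where the groups overlap.

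Rfc5, a small subunit (ENSMUSG00000029363; mm10 chromosome 5, 117378103 to 117389047, minus strand, protein-coding), was 1568 and 1653 in NC and 1033 and 1159 in KD blastocysts. The groups were well apart, 1.47-fold on the means (log2 difference -0.56, SE 0.12, unadjusted p = 0.00253, limma adjusted p = 0.110). In morulae it was 1026 and 659 in NC and 658 and 638 in KD (-0.34, SE 0.24, adjusted p = 0.670). There NC replicate 1 alone was high, and the difference was -0.02 without it and -0.66 without NC replicate 2. Rfc2, Rfc3 and Rfc4, the other small subunits, had differences of -0.11, 0.05 and 0.08 in morulae and 0.04, -0.20 and -0.24 in blastocysts.

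RPA, which protects single-stranded DNA, showed subunits on opposite sides of NC in blastocysts. Rpa1, the large DNA-binding subunit (ENSMUSG00000000751; mm10 chromosome 11, 75298166 to 75348324, minus strand, protein-coding), was 1988 and 1911 in NC and 2736 and 2378 in KD morulae. In blastocysts it was 2856 and 2866 in NC and 3487 and 3838 in KD. KD libraries were above NC at both stages, 1.31-fold and 1.28-fold on the means. The log2 differences were 0.39 (SE 0.14, limma adjusted p = 0.430) and 0.35 (SE 0.10, adjusted p = 0.148), so neither passed.

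Rpa2, the subunit that is phosphorylated under replication stress, was 1561 and 1446 in NC and 1335 and 1060 in KD blastocysts (-0.34, SE 0.14, adjusted p = 0.291). KD lay below NC, and the difference was -0.17 without KD replicate 2. In morulae it was 1473 and 1627 against 1429 and 1622, which overlap (-0.02, and 0.01 after quantile normalization). Rpa3, the smallest subunit, was higher in both KD libraries at each stage (0.33, adjusted p = 0.667, and 0.13, adjusted p = 0.698). Per kilobase, Rpa1 made up 35.4% and 36.5% of RPA in NC and 41.0% and 46.3% in KD blastocysts, while Rpa2 made up 36.1% and 34.3% against 29.2% and 23.8%. In morulae the Rpa1 share was 30.8% and 30.2% against 38.0% and 31.7%. The groups did not overlap in any of these 3 sets of shares. Shares of Rpa1 and Rpa2 have a common sum and come from the same libraries, so they are no separate support.

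**Figure D3:**
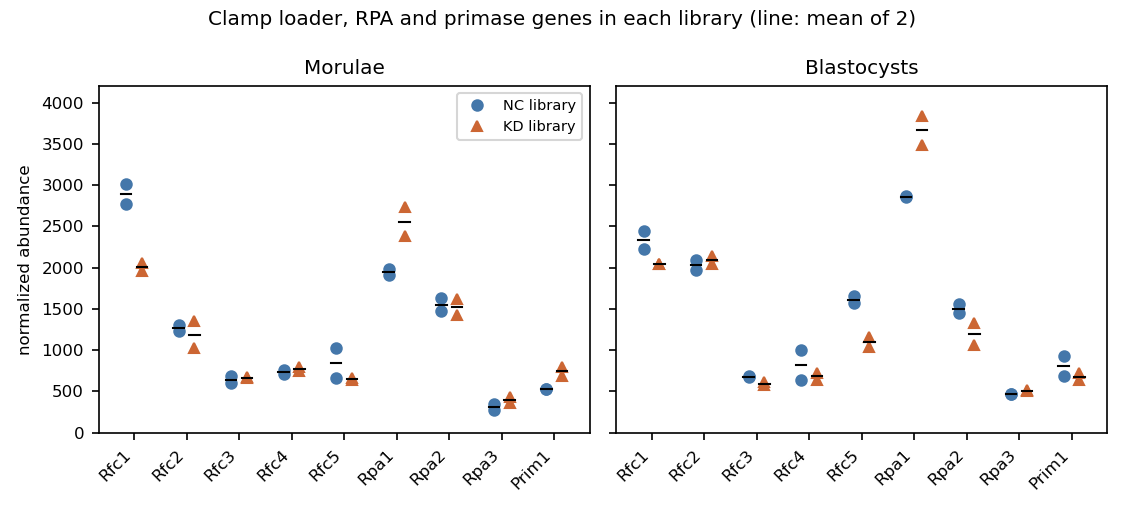
Normalized abundance (y axis, linear, normalized separately by stage) of clamp loader, RPA and primase genes (x axis) is plotted for each NC library (circles) and KD library (triangles), with a line at each group's mean of 2. Rfc1 in morulae (1959 and 2057 in KD) and Rfc5 in blastocysts (1033 and 1159 in KD) lie below NC, and Rpa1 lies above NC at both stages.

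**Figure D4:**
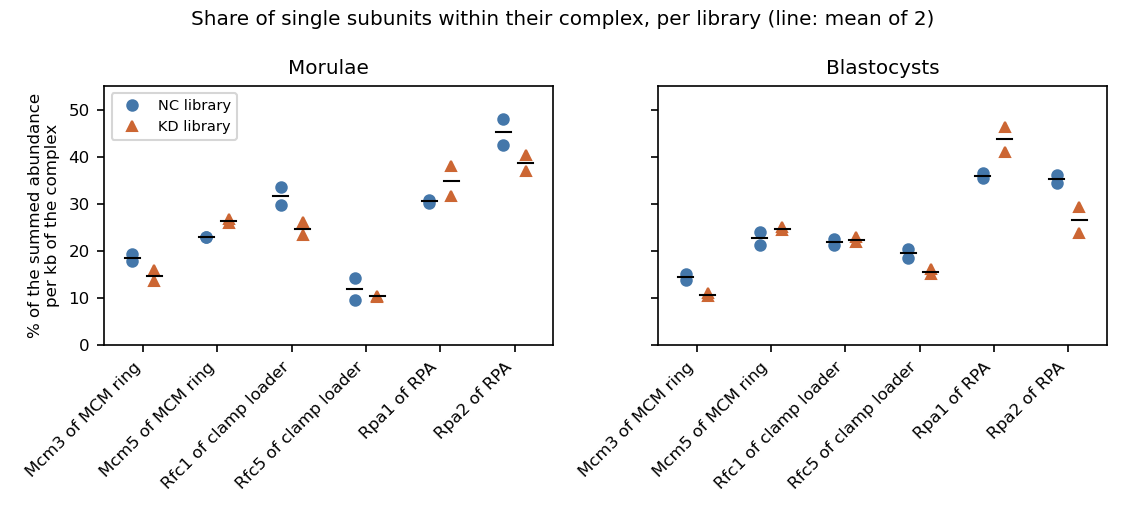
The share of a subunit in the summed abundance per kilobase of its complex (y axis, %) is plotted for each NC library (circles) and KD library (triangles), with a line at each mean of 2, for subunits chosen after their values were seen. Mcm3 takes 10.3% and 10.9% of the MCM ring in KD blastocysts against 15.0% and 13.7% in NC, whereas the Rfc1 share overlaps between groups in blastocysts.

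Polymerase and primase genes were higher and lower in nearly equal number in morulae, 5 and 3 of 8 (median 0.06), and 2 and 6 in blastocysts (median -0.16). Prim1, the catalytic primase subunit (mm10 chromosome 10, 128015168 to 128030037, plus strand), was 528 and 529 in NC and 683 and 802 in KD morulae (0.49, SE 0.18, unadjusted p = 0.0310, limma adjusted p = 0.446). The KD morulae stood above NC. In blastocysts it was 687 and 934 in NC and 642 and 719 in KD, which overlap (-0.24, and -0.02 without NC replicate 2). Pole2, a subunit of the leading-strand polymerase epsilon, was 287 and 286 against 349 and 414 in morulae (0.41, adjusted p = 0.570) and 479 and 475 against 393 and 467 in blastocysts (-0.15), above NC in the first and below it in the second. Its difference between stages was -0.56 (limma adjusted p = 0.921), which did not pass.

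Pola1, the catalytic subunit of polymerase alpha, was 1197 and 1379 in NC and 1050 and 1076 in KD blastocysts (-0.27, SE 0.13, adjusted p = 0.318, and -0.17 without NC replicate 2). Both KD libraries were lower there, while in morulae they overlapped NC at 1302 and 1793 against 1477 and 1945. The morula difference of -0.15 was 0.05 without NC replicate 2 and 0.08 without KD replicate 1. Pold1, the catalytic subunit of polymerase delta, had differences of 0.06 and 0.00 with overlapping libraries, and Pole, that of epsilon, -0.23 and -0.16. Prim2, the other primase subunit, had the largest blastocyst difference of the group. It was 478 and 494 in NC and 374 and 398 in KD (-0.33, SE 0.16, limma adjusted p = 0.340). That difference was -0.38 to -0.29 with 1 library left out, and in morulae the Prim2 groups overlapped (0.06).

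The last 2 groups, Okazaki fragment joining and ribonucleotide reductase, were near NC, with overlap between groups for all 4 genes at both stages. Fen1, the flap nuclease, had log2 differences of -0.10 in morulae and 0.00 in blastocysts. Lig1, the replicative ligase, was 4323 and 5112 in NC and 4039 and 4341 in KD blastocysts (-0.17, adjusted p = 0.472, and -0.05 without NC replicate 2), which overlap. In morulae it was 2706 and 1939 against 2673 and 2447 (0.16, and -0.08 without NC replicate 2). Rrm2, the limiting subunit of ribonucleotide reductase, was the most abundant member per kilobase in NC at each stage, 4787 in morulae and 3925 in blastocysts. It was 12804 and 13728 in NC and 12648 and 14116 in KD morulae (0.01) and 12080 and 9673 against 12464 and 10458 in blastocysts (0.08). Rrm1, its partner, had differences of -0.01 and -0.08. All libraries of both genes overlap between groups, and the sign of these values turned when single libraries were left out, except for Rrm1 in blastocysts.

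Across stages, 27 of the 46 members had the same sign of the KD difference, against 64.5% of 12875 genes tested at both. Both KD libraries lay above both NC libraries at both stages for 5 members, Orc3, Orc6, Gins4, Rpa1 and Rpa3 (background 9.41%), and below for 4, Mcm3, Gins1, Rfc1 and Rfc5 (background 9.54%). Whether the KD difference was the same at both stages (blastocyst value minus morula value) was tested in limma with the 8 libraries together, which called 0 of 12875 genes and took 687 (5.34%) at an unadjusted p under 0.05. Prim1 was the 1 member at an unadjusted p under 0.05, with -0.72 (SE 0.26, unadjusted p = 0.0213, adjusted p = 0.905). It was -0.33 for Mcm3, 0.33 for Rfc1 (both adjusted p = 0.921), -0.21 for Rfc5 (adjusted p = 0.949) and -0.03 for Rpa1 (adjusted p = 0.984). The value of Rfc5 was 0.11 without NC morula replicate 2, and that of Rpa1 0.07 without KD morula replicate 1 and 0.04 without KD blastocyst replicate 1. No member passed the test of a difference between stages.

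The mean of the KD differences at both stages was also fitted in limma, a choice made after the data were seen. It called 3 of the 46 members, against 2.99% of 12875 genes, and 7 members had an unadjusted p under 0.05, against 20.8%. Mcm3 fell by a mean of 0.45 on the log2 scale (SE 0.09, limma adjusted p = 0.0349) and Rfc1 by 0.36 (SE 0.07, adjusted p = 0.0448), and Rpa1 rose by 0.37 (SE 0.08, adjusted p = 0.0462). All 4 KD libraries of each lay on 1 side of the NC libraries of their stage. With 1 library left out the adjusted p was 0.0474 to 0.127 for Mcm3, 0.0540 to 0.149 for Rfc1 and 0.0623 to 0.153 for Rpa1, and of these fits only that of Mcm3 without NC morula replicate 1 still passed.

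Other genes of the pathway were examined in 5 lists. None of their genes passed over all genes at either stage. Of the 12 nucleotide supply genes 9 were lower in KD morulae and all 12 in KD blastocysts, with median log2 differences of -0.16 and -0.28, and both KD libraries lay below NC for 5 and 7 of them (21.2% and 24.9% of all genes).

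Dctd, the dCMP deaminase that feeds thymidylate synthesis, was 1111 and 1543 in NC and 540 and 675 in KD morulae (2.18-fold lower, log2 difference -1.12, SE 0.22, limma adjusted p = 0.362). In blastocysts it was 1022 and 947 in NC and 467 and 261 in KD (2.70-fold lower, -1.49, SE 0.27, adjusted p = 0.0944). Both KD libraries were below NC at both stages. Cad, which starts pyrimidine synthesis, was 10271 and 11120 against 7255 and 8869 in morulae (-0.41, adjusted p = 0.413) and 5919 and 6094 against 4628 and 3448 in blastocysts (-0.59, adjusted p = 0.126). Rrm2b, the p53-inducible reductase subunit, was 200 and 224 in NC and 111 and 109 in KD blastocysts (-0.94, adjusted p = 0.142), and 114 and 131 against 95.4 and 53.2 in morulae (-0.77). All KD libraries of Cad and Rrm2b were below NC.

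Among 26 regulators of the G1/S step, 14 were higher and 12 lower in KD morulae (median 0.03) and 17 and 9 in KD blastocysts (median 0.09). Ccnd1, cyclin D1, was 193 and 239 in NC and 631 and 479 in KD morulae (2.57-fold higher, log2 difference 1.35, SE 0.24, limma adjusted p = 0.343). In blastocysts it was 93.7 and 41.3 in NC and 344 and 180 in KD (3.88-fold higher, 1.98, SE 0.48, adjusted p = 0.126). All 4 KD libraries were above NC. Cdk2, the kinase of cyclins E and A, was 3275 and 3196 in NC and 4411 and 4180 in KD blastocysts (0.41, adjusted p = 0.112), with -0.05 and overlap in morulae. Cdc25a, the phosphatase that activates CDK2, had 0.33 in blastocysts (adjusted p = 0.201) and 0.06 in morulae. Rbl2, a pocket protein that holds E2F genes down, was 71.7 and 111 in NC and 33.5 and 27.2 in KD morulae (-1.53, adjusted p = 0.396) and overlapped in blastocysts, and Ccna2, cyclin A2, had -0.29 in morulae (adjusted p = 0.474).

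**Figure D5:**
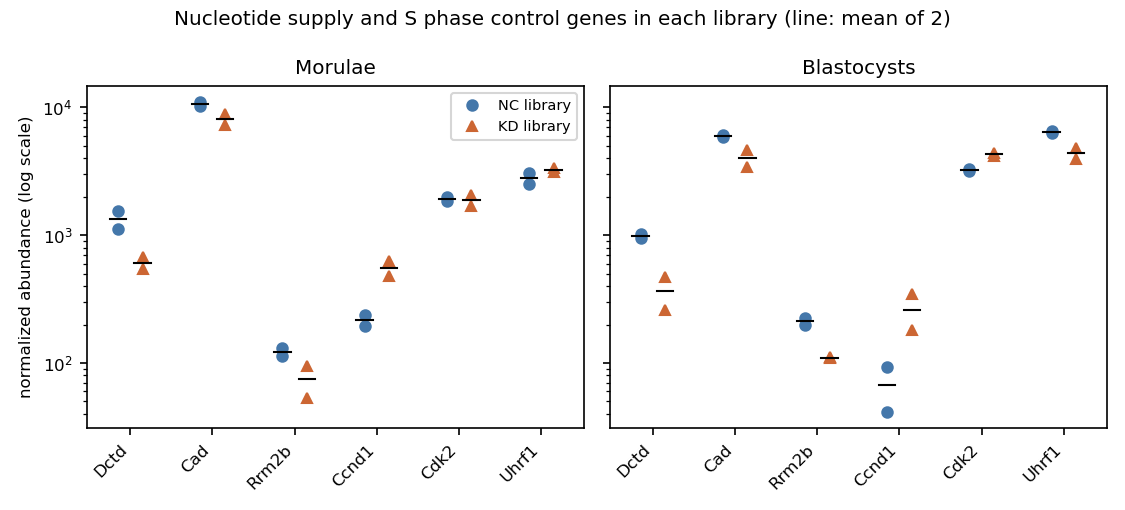
Normalized abundance (y axis, log scale, normalized separately by stage) of nucleotide supply genes (Dctd, Cad, Rrm2b), G1/S regulators (Ccnd1, Cdk2) and Uhrf1 (x axis) is plotted for each NC library (circles) and KD library (triangles), with a line at each mean of 2. Dctd is lower and Ccnd1 higher in every KD library, as in blastocysts at 467 and 261 against 1022 and 947 for Dctd.

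Of 26 fork accessory genes and remaining polymerase subunits 15 were lower in KD at each stage (medians -0.04 and -0.10). Mcmbp, which binds free MCM subunits, was lower in both KD libraries at both stages, at 1531 and 1434 against 1982 and 1878 in morulae (-0.38, adjusted p = 0.432) and 2046 and 2101 against 2715 and 2404 in blastocysts (-0.30, adjusted p = 0.222). Clspn, the checkpoint adaptor claspin, had -0.54 in morulae (adjusted p = 0.436), Rif1, a replication timing factor, -0.34 in blastocysts (adjusted p = 0.168), and Tipin, a fork protection subunit, -0.36 in blastocysts (adjusted p = 0.202). Recql4, a helicase needed for initiation, was on opposite sides of NC, with 0.61 in morulae (adjusted p = 0.413) and -0.27 in blastocysts. Its difference between stages was -0.88 (limma adjusted p = 0.834), which did not pass.

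The 24 genes of replication stress and licensing control had 16 lower members in KD morulae (median -0.10) and 13 in KD blastocysts (median -0.02). The kinase gene Atr was 597 and 439 in NC and 348 and 337 in KD morulae (-0.58, adjusted p = 0.467), and H2afx, the histone variant marked at breaks, had 0.30 in blastocysts (adjusted p = 0.204). Of 15 genes of chromatin assembly behind the fork, 9 were lower in KD morulae (median -0.01) and 11 in KD blastocysts (median -0.15). Uhrf1, which guides DNMT1 to replicated DNA, was 6563 and 6319 in NC and 4819 and 3976 in KD blastocysts (-0.56, adjusted p = 0.101), but 3088 and 2531 against 3329 and 3100 in morulae (0.20, adjusted p = 0.682). The groups do not overlap at either stage and lie on opposite sides, and the difference between stages was -0.76 (limma adjusted p = 0.834).

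Mitosis genes, the phase after S phase, gave the nearest comparison. Of 30, 12 were higher and 18 lower in KD morulae (median -0.03), close to the replication genes. In KD blastocysts 24 were higher and 6 lower (median 0.07), where the 46 replication genes had 13 higher and 33 lower. Both KD libraries lay above NC for 12 of the 30 mitosis genes and below for 1, against 5 and 16 of the 46 replication genes and 24.6% and 24.9% of all genes. None passed, with Ube2c (0.40, limma adjusted p = 0.143) and Aurka (0.34, adjusted p = 0.173) the 2 of smallest p in blastocysts. The lists share no gene, and the difference between them was not tested.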

How the data were processed

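RNA was sequenced in 8 libraries, 2 per stage and group. Per the labels' protocols and the series' design text, RNA was taken with a PicoPure kit, polyadenylated RNA was bound to oligo(dT) beads and NEBNext Ultra libraries were prepared (12 to 15 PCR cycles, paired reads of 150 bases). The authors deposited a normalized signal per gene in 1 table per stage. Salmon 0.14.1, DESeq2 and mm10 are named, per the submitters' processing notes, without roles. Column sums were 17151880 to 17823304 in morulae and 18896774 to 19247880 in blastocysts. The step that separates low values puts the depth of morula libraries at 16177238 to 18568761 reads and that of blastocyst libraries at 13958294 to 23304921. Low values shared between libraries were whole multiples of that step (tolerance 0.01) in 11.4% to 30.3% of cases, so no count test was run and depth sets no interval. Errors are the spread of the libraries.

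Symbols came from the gene name table (98.9% of IDs matched), coordinates and merged exon lengths from GENCODE vM21 on mm10. Genes with a mean of at least 10 entered limma 3.58.1 (R 4.3.3, mean-variance trend) on the log2(value + 1) scale, KD minus NC per table, Benjamini-Hochberg adjusted over all genes with a threshold of 0.05. This scale understates changes of low genes. The labels do not tie the 2 libraries of a group to separate litters, so the p-values reflect library spread alone, possibly technical. The fit was tested on simulated data.

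The members and all gene lists were chosen with earlier results of these data known. Members were picked, by rule, for 1 of the 6 smallest p or 1 of the 4 largest differences in either table. The member with the smallest p of each role group was picked too, and up to 3 genes per pathway list and table by p. Values in every library are given for most picked members, but not for Rrm1, Mcm4 in morulae or Gins2 in blastocysts. Some picked pathway and mitosis genes have only a log2 difference or are not named. Values of other members, given to complete a complex or role group, were chosen after they were seen. Alternatives were pseudocounts of 0.5 and 10, no filter, a minimum mean of 50, no trend, quantile normalization, median centring, a replicate block and leaving out each library.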

Additional observations from a re-analysis of the deposited data

How the results depend on the processing

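The alternatives were run for the 46 members, Smarca5 and 18 pathway and mitosis genes, 1524 pairs of a value and a setting. Of these 1426 kept direction and side of the threshold, 77 reversed (74 of members), 2 no longer passed (Smarca5) and 19 newly passed, all under the replicate block. Without the mean-variance trend limma called 0 genes at each stage, and Smarca5 had an adjusted p of 0.111 in morulae and 0.103 in blastocysts. The 12 genes called in blastocysts became 27 with no filter. The members' blastocyst median of -0.10 was -0.09 after quantile normalization and -0.07 after median centring. After quantile normalization Cdc6 (0.02), Mcm10, Rpa2 and Rrm1 (0.01 each) turned sign in morulae, and Gins3 (0.01), Cdc7 (0.02) and Fen1 (-0.00) in blastocysts. Median centring turned Mcm10 and Gins3 (0.01 each), Cdc7 and Topbp1 (0.03 each) in blastocysts. The cause was not tested for any of these. The labels do not say that replicate numbers pair libraries, though NC and KD replicate differences correlated across genes at 0.297 in morulae and 0.146 in blastocysts. With the replicate number as a block, limma called 892 genes in morulae, with 1 member (Rfc1, adjusted p = 0.0111). It called 1208 in blastocysts, with 3 members (Mcm3, 0.00617, Rfc5, 0.0154, and Rpa1, 0.0311). For the difference between stages it called 1, and for the mean change 1543. Within a table the block leaves almost no data to estimate each gene's own spread. Its calls therefore lean on the spread shared across genes and on an assumed pairing. Of the 18 pathway and mitosis genes, the block called Dctd (adjusted p = 3.37e-04), Cad (0.0140), Ccnd1 (0.00189) and Rbl2 (0.0449) in morulae. Outside these 18, it also called the mitosis gene Anln in morulae (-0.42, limma adjusted p = 0.0317). In blastocysts it called Dctd (0.0043), Cad (0.0152), Rrm2b (0.0474), Ccnd1 (0.00564), Cdk2 (0.0157), Cdc25a (0.0376), Uhrf1 (0.0063), Rif1 (0.0453), H2afx (0.0326), Ube2c (0.0283) and Aurka (0.0280). Leaving out 1 library leaves a group of 1, assumed to vary like the others. Calls then were 1 to 9 in morulae, 1 to 7 in blastocysts and 0 to 2 for the difference between stages, with 0 members, and the members' median was -0.06 to 0.08 and -0.11 to -0.05. The log2 differences that turned sign had these ranges. In morulae they were Orc5 -0.18 to 0.18, Cdc6 -0.14 to 0.11, Cdt1 -0.25 to 0.16, Gmnn -0.21 to 0.10, Mcm6 -0.03 to 0.22, Mcm7 -0.01 to 0.13, Mcm10 -0.23 to 0.16, Cdc45 -0.07 to 0.42, Gins2 -0.09 to 1.22, Cdc7 -0.17 to 0.29, Pcna -0.14 to 0.01, Rfc2 -0.31 to 0.09, Rfc3 -0.04 to 0.15, Pola1 -0.38 to 0.08, Prim2 -0.09 to 0.22, Pold1 -0.05 to 0.18, Rpa2 -0.12 to 0.07, Fen1 -0.23 to 0.04, Lig1 -0.08 to 0.40, Rrm1 -0.15 to 0.13, Rrm2 -0.07 to 0.09, Cdk2 -0.19 to 0.09 and Cdc25a -0.12 to 0.25. In blastocysts they were Orc2 -0.35 to 0.05, Orc4 -0.36 to 0.07, Cdt1 -0.18 to 0.22, Mcm5 -0.15 to 0.05, Mcm10 -0.05 to 0.01, Cdc45 0.00 to 0.09, Gins2 -0.30 to 0.08, Gins3 -0.25 to 0.21, Dbf4 -0.14 to 0.02, Cdc7 -0.26 to 0.26, Ticrr -0.14 to 0.20, Topbp1 -0.18 to 0.18, Rfc4 -0.56 to 0.09, Pola2 -0.03 to 0.17, Pold1 -0.06 to 0.06, Pold2 -0.37 to 0.09, Fen1 -0.06 to 0.07 and Rrm2 -0.08 to 0.24. For the difference between stages they were Rfc5 -0.53 to 0.11 and Rpa1 -0.13 to 0.07. The 2 libraries per group limit precision.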

Other observations

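In the fit of the mean KD difference over both stages, added after the data were seen, limma called 385 of 12875 genes. Genes of the wider pathway were among them. Ccnd1 rose (1.67, adjusted p = 0.0317), Dctd fell (-1.30, adjusted p = 0.0199) and Cad fell (-0.50, adjusted p = 0.0474). With 1 library left out their log2 differences were 1.38 to 1.96, -1.51 to -1.09 and -0.61 to -0.39. Ccnd1 and Dctd then failed to pass without some libraries, and Cad failed whichever library was left out. The genes called in all fell to 7 without KD blastocyst replicate 1, to 15 without KD morula replicate 1, to 16 without KD blastocyst replicate 2, to 21 without NC blastocyst replicate 2, to 59 without NC blastocyst replicate 1 and to 72 without KD morula replicate 2.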
